A study of Rattus norvegicus with 3 samples.

Results

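Histone genes were followed in ROS17/2.8 cells, a rat osteosarcoma line with osteoblast features, by their RNA levels on 3 one-colour Agilent arrays of 60-base probes. Members were chosen by gene name alone: every non-control probe whose name in the files begins like a histone cluster gene or a linker, H2A, H2B, H3 or H4 family gene. This gave 41 gene names with 57 probes, out of 26115 names with 30367 probes on the array. Names of the clustered genes (those beginning with Hist) made up the replicative class, with 30 genes, and the remaining 11 genes made up the variant class. A probe was taken as measured where at least 50% of its spots were well above background on all 3 arrays. By that rule 24 replicative genes (32 probes) and 8 variant genes (12 probes) were measured, among 14388 measured genes on the whole array.

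Polyphosphate at 1 mg/ml for 24 h made up the high dose group, and polyphosphate at 0.01 mg/ml for 24 h the low dose group. The control cells had no polyphosphate, and no time is stated for them. Polyphosphate is a linear chain of phosphate residues. All 3 cultures were confluent when moved to a mineralization medium, that is, a serum-containing growth medium with ascorbate phosphate and β-glycerophosphate, so the control carried those supplements too. Each group was 1 array of 1 cell line. No test between groups was therefore possible, no p-value is given, and the ± values are spot errors, which measure only the spread between repeat spots of a probe within an array.

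In dividing cells, replicative histone genes are transcribed in S phase, when new DNA has to be packed into nucleosomes. Their messenger RNAs normally end in a conserved stem-loop that is bound by the protein SLBP, rather than in a poly(A) tail. Variant histones such as H2A.Z, H2A.X, macroH2A and H3.3 come from genes outside the clusters. As a rule, though not in every case, their messenger RNAs are polyadenylated and made through the whole cell cycle.

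Most replicative histone genes had a lower signal at the high dose than on the control, while the variants as a class stayed near 0. Values compared are log2 ratios of the processed signal after each array was scaled to its 75th percentile, which was 926 on the control, 964 with the low dose and 937 with the high dose. Against control at the high dose, the median log2 ratio was -0.17 over the 24 replicative genes and 0.02 over the 8 variants, beside -0.01 over all measured genes. Of the replicative genes 18 lay below 0 and 6 above, and of the variants 4 lay below and 4 above, where 52.1% of all measured genes lay below 0. At least 1.2-fold lower were 7 replicative genes and 1 variant (background 7.78%), and at least 1.2-fold higher was 1 replicative gene (background 7.01%). Lower by more than 2 spot errors were 15 replicative genes and 2 variants (background 12.8%), and higher by as much was 1 gene of each class (background 10.6%). None of the 32 genes was 2-fold apart from control, which 0.111% of all measured genes were.

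At the low dose the replicative median was -0.09 and the variant median 0.02, beside 0.00 over all measured genes. Below 0 were 18 of the 24 replicative genes and 1 of the 8 variants (background 49.5%). At least 1.2-fold lower were 2 replicative genes, Hist1h1a and Hist2h4 (background 4.79%), and no histone gene was as much higher (background 3.76%). Lower by more than 2 spot errors were 9 replicative genes and 1 variant (background 4.59%), and none was higher by as much (background 4.3%). None was 2-fold apart (background 0.0904%). The 2 comparisons share the control array, so genes below 0 in both do not count as a repeat.

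Between the doses, high against low, the replicative median was -0.07 and the variant median -0.01, with 18 of 24 and 4 of 8 genes below 0 (background 53.1%). At least 1.2-fold lower at the high dose were Hist1h3a and the variant H1fx (background 6.07%), and Hist2h2ab alone was as much higher (background 6.87%). Lower by more than 2 spot errors were 6 replicative genes and 1 variant (background 10.7%), and higher was 1 of each class (background 9.65%). None was 2-fold apart (background 0.0695%). In 14 of the 24 replicative genes (58.3%) the scaled level stepped down from control to low dose to high dose, compared with 1 of 8 variants and 22.4% of all measured genes. Expressed as a percentage of the control array, the replicative median was 94.1 with the low dose and 88.6 with the high dose, and the variant median was 102 at both doses.

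**Figure D1:**
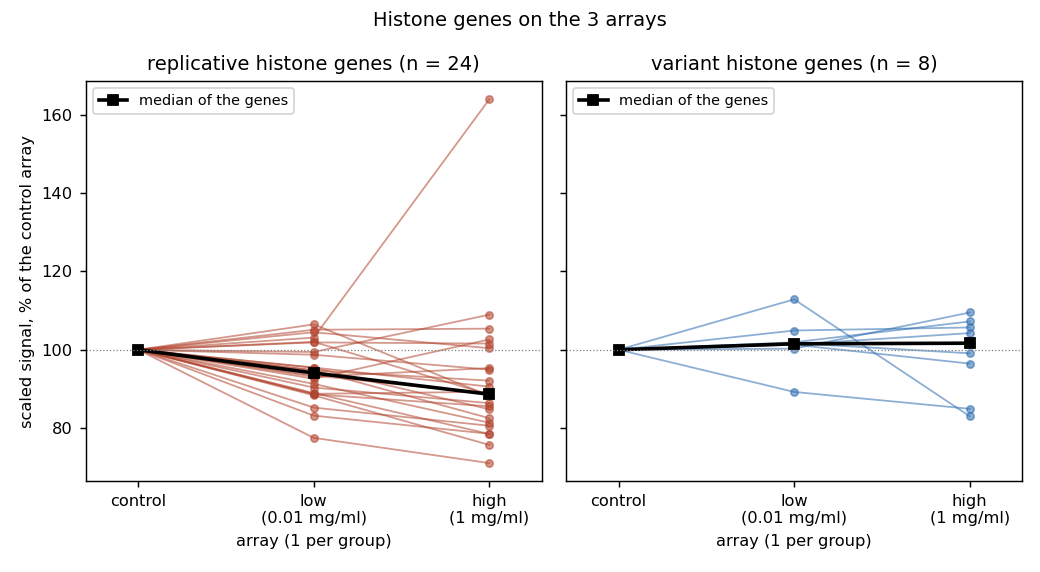
Scaled signal of each measured histone gene on the 3 arrays, as a percentage of its control value; thin lines are genes, the black line is the class median, and each group is 1 array. The replicative median goes to 88.6% at the high dose, the variant median stays at 102%, and the single line at the top of the left panel is Hist2h2ab.

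The direction against control depended on how the arrays were centred. The 8 probes for spike-in control RNAs read lower on both polyphosphate arrays, with a mean log2 ratio to control of -0.16 at either dose and 0.00 between the doses. Centring on them raises every ratio to control by 0.16, and puts the median of all measured genes at 0.15 for the high dose and 0.16 for the low dose. The replicative medians then read -0.02 and 0.07, so the low dose median turns positive, and the variant medians read 0.18 at both doses. Of the 24 replicative genes 14 then lie below 0 with the high dose and 7 with the low dose, where 18 did in each case on the 75th percentile scale. Of all 14388 measured genes, 2545 then lie below 0 with the high dose and 1522 with the low dose, where 7497 and 7122 did before. For the 8 replicative H2A genes the count below 0 at the high dose goes from 5 to 2. On any such centring the replicative median lay below the variant median by the same amount, a difference of -0.20 with the high dose and -0.11 with the low dose. Below, ratios are on the 75th percentile scale.

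Linker histone H1 binds the DNA between nucleosomes, and its 3 measured replicative genes were all lower at the high dose, with a median log2 ratio of -0.21. Hist1h1a (H1f1 in RefSeq) read 175 on the control, 141 with the low dose and 126 with the high dose. That is a stepwise order, with log2 ratios to control of -0.37 ± 0.13 with the low dose and -0.49 ± 0.13 with the high dose, the lowest among the measured histone genes in both comparisons. Hist1h1d (H1f4) read 12321, 11585 and 10759 in the same order, with log2 ratios of -0.15 ± 0.05 and -0.21 ± 0.05. Hist1h1b (H1f5) had 2 probes, which read 1388 and 560 on the control, 1331 and 552 at the low dose, and 1238 and 505 at the high dose. Both of its probes were lowest at the high dose, and the gene's log2 ratios were -0.10 ± 0.06 and -0.17 ± 0.06. The probes of Hist1h1a and Hist1h1d are shown because they carry the largest H1 difference and the H1 difference with the smallest spot error. Both lie on chromosome 17 in the coordinates of the files (rn4), Hist1h1a on the plus strand at chr17:48527056-48527115 and Hist1h1d on the minus strand at chr17:48402439-48402498. The latter ends with the stop codon of the reading frame.
Hist1h1a probe: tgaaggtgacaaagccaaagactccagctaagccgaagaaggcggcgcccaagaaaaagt
Hist1h1d probe: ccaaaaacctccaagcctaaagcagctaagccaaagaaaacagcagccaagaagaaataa

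H2B forms a dimer with H2A on the nucleosome surface. Its 7 measured replicative genes had a median log2 ratio of -0.24 at the high dose, and split into 4 below 0 and 3 just above. The genes below 0 were Hist1h2bd, Hist2h2be, Hist1h2bl and Hist1h2bk. Hist1h2bd read 3725 on the control, 3448 with the low dose and 2956 with the high dose, with log2 ratios of -0.17 ± 0.06 and -0.35 ± 0.06. Hist1h2bl read 4617, 4386 and 3797, with log2 ratios of -0.13 ± 0.06 and -0.30 ± 0.06. The 2 Hist1h2bk probes (H2bc12 in RefSeq) read 4850 and 3146 on the control, 4874 and 3086 at the low dose, and 4144 and 2706 at the high dose. The gene's log2 ratio was -0.07 ± 0.06 with the low dose and -0.24 ± 0.06 with the high dose. Hist2h2be, from the cluster on chromosome 2, read 198, 176 and 161, with log2 ratios of -0.23 ± 0.11 and -0.31 ± 0.11. All 4 genes were lowest on the high dose array.

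The probes of Hist1h2bd, Hist1h2bk and Hist1h2bl all contain one run of 26 bases, in capitals below, so these signals can read the same transcripts in part and are not independent. Their places in rn4 are on chromosome 17: chr17:50429478-50429536 (minus strand, as the files give it) for Hist1h2bd, chr17:50118991-50119050 and chr17:50119007-50119066 (minus strand) for the 2 Hist1h2bk probes, and chr17:48771978-48772037 (plus strand) for Hist1h2bl. The files place the starts of these probes, in that order, at transcript bases 111, 106, 90 and 105.
Hist1h2bd probe: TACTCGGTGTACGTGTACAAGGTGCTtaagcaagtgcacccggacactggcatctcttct
Hist1h2bk probe 1: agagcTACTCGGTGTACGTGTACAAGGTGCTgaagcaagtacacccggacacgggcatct
Hist1h2bk probe 2: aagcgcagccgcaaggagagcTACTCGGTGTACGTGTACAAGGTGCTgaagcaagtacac
Hist1h2bl probe: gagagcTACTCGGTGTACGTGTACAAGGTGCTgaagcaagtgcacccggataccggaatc

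The other 3 H2B genes had ratios to control just above 0 at the high dose, with probes that disagreed for Hist1h2bh. Hist1h2bo read 280, 290 and 309 on the control, low and high dose arrays, with a log2 ratio to control of 0.12 ± 0.09 at the high dose. Hist1h2bf read 106, 112 and 109, with a log2 ratio of 0.02 ± 0.15. Hist1h2bh had 2 probes that went opposite ways between the doses. The probe starting at transcript base 728 read 856, 954 and 779, a high against low log2 ratio of -0.25, and the probe starting at base 889 read 109, 116 and 124, a ratio of 0.14. These differed by 0.39 ± 0.16. This was the only one of 13 probe pairs, over 11 histone genes, whose ratios had opposite signs and lay more than 2 spot errors apart in any of the comparisons. The mean of the pair, a log2 ratio to control of 0.01 ± 0.08 at the high dose, therefore stands for neither probe.

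H4 and H3 form the tetramer at the core of the nucleosome. All 4 measured H4 genes and both measured H3 genes were below 0 at the high dose, with medians of -0.23 and -0.20. Hist1h4b read 7710 on the control, 7608 with the low dose and 6432 with the high dose, with log2 ratios of -0.08 ± 0.08 and -0.28 ± 0.08. Hist2h4 (H4c14) had a bright probe with 9728, 9174 and 7909 and a dim probe with 72.8, 57.9 and 56.5. Both Hist2h4 probes were lower on the polyphosphate arrays, and the gene's log2 ratios were -0.27 ± 0.11 and -0.35 ± 0.12. At the low dose the bright probe lay at -0.14 ± 0.07 and the dim one at -0.39 ± 0.20. Only the dim probe was 1.2-fold lower there, so the gene's place past that fold depends on it. The 2 Hist1h4m probes read 4898 and 1446 on the control, 4855 and 1645 at the low dose, and 4148 and 1369 at the high dose. Its log2 ratio was 0.03 ± 0.06 with the low dose and -0.18 ± 0.06 with the high dose. Hist1h4a read 439, 436 and 402, with a log2 ratio of -0.14 ± 0.12 at the high dose, within 2 spot errors of 0.

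Of the H3 genes, Hist2h3c2 read 4922, 4539 and 4257 on the control, low and high dose arrays. It was lower at both doses, with log2 ratios of -0.17 ± 0.06 and -0.23 ± 0.06. Hist1h3a had probes at transcript bases 1208 and 2485, far past the length of a typical histone messenger RNA. They read 261 and 803 on the control, 316 and 813 at the low dose, and 238 and 700 at the high dose. The gene lay at a log2 ratio of 0.09 ± 0.08 with the low dose and -0.18 ± 0.09 with the high dose, and its high against low ratio of -0.27 ± 0.09 was the lowest among the replicative genes.

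Shown next is 1 H4 probe each of Hist1h4b and Hist1h4m, with their common 14-base run in capitals, because both read lower at the high dose while they differ at many other bases. The Hist2h4 probe that read 9728 on the control shares at most 8 bases in a row with another gene's probe among the 57. Only those 57 probes were compared, and a short shared run does not show which H4 transcripts a probe reads. Hist1h4b lies at chr17:50113760-50113819 and Hist1h4m at chr17:50332643-50332702, both on the plus strand of rn4. The Hist2h3c2 probe, at chr2:191081715-191081774 on the plus strand, shares at most 9 bases in a row with any other gene's probe among these histones.
Hist1h4b probe: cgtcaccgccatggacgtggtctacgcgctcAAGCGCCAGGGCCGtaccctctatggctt
Hist1h4m probe: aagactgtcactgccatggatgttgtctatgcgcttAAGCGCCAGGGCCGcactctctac
Hist2h3c2 probe: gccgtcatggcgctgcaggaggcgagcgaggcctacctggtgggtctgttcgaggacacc

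Among the replicative core histones, H2A had the median nearest 0 at the high dose, a log2 ratio of -0.07 over 8 measured genes, 5 of them below 0. Hist1h2ai read 176 on the control, 162 with the low dose and 135 with the high dose, with log2 ratios of -0.18 ± 0.12 and -0.40 ± 0.13. Hist1h2ail read 33102, 30572 and 29875, so its log2 ratio was -0.17 ± 0.05 with the low dose and -0.16 ± 0.05 with the high dose. The 3 Hist1h2af probes read from 36410 to 42535 on the control, from 36443 to 42242 with the low dose and from 34539 to 41301 with the high dose. The gene's log2 ratios were -0.08 ± 0.04 and -0.12 ± 0.04. Hist2h2ac read 17073, 17542 and 16387, with log2 ratios of -0.02 ± 0.05 and -0.08 ± 0.05. Hist1h2ak read 69666, 67512 and 67140, with log2 ratios of -0.10 ± 0.07 and -0.07 ± 0.07. For both of these genes the difference from control was within 2 spot errors at either dose.

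The other 3 H2A genes were above 0. Hist3h2a, measured by 10 spots, read 97.0, 106 and 103, with a log2 ratio of 0.08 ± 0.07 at the high dose. Hist1h2an read 173, 166 and 179 on its measured probe, with a log2 ratio of 0.04 ± 0.17. A second Hist1h2an probe was well above background on the control and with the low dose and not with the high dose, reading 28.0, 27.4 and 26.4. These readings differ by less than the spot error, and no bound is drawn from them. A far brighter probe outside the name rule, described as H2an of histone cluster 1, read 60330, 62579 and 58156. Its log2 ratio at the high dose was -0.07 ± 0.07, so the sign for this gene is not settled. Hist2h2ab went the other way: it read 60.7 on the control, 65.1 with the low dose and 101 with the high dose. Its log2 ratio of 0.71 ± 0.25 was the highest among the histone genes, and it rests on 1 spot per array.

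Below, the Hist2h2ab probe (chr2:191023300-191023359 in rn4) is set beside that of Hist1h2ak (chr17:50436332-50436391, minus strand), since both end at the stop codon of an H2A reading frame and their ratios differ. Capitals mark the common 8-base run at their start.
Hist2h2ab probe: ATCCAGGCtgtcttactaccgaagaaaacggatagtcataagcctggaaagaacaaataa
Hist1h2ak probe: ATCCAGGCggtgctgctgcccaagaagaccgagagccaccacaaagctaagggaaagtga

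**Figure D2:**
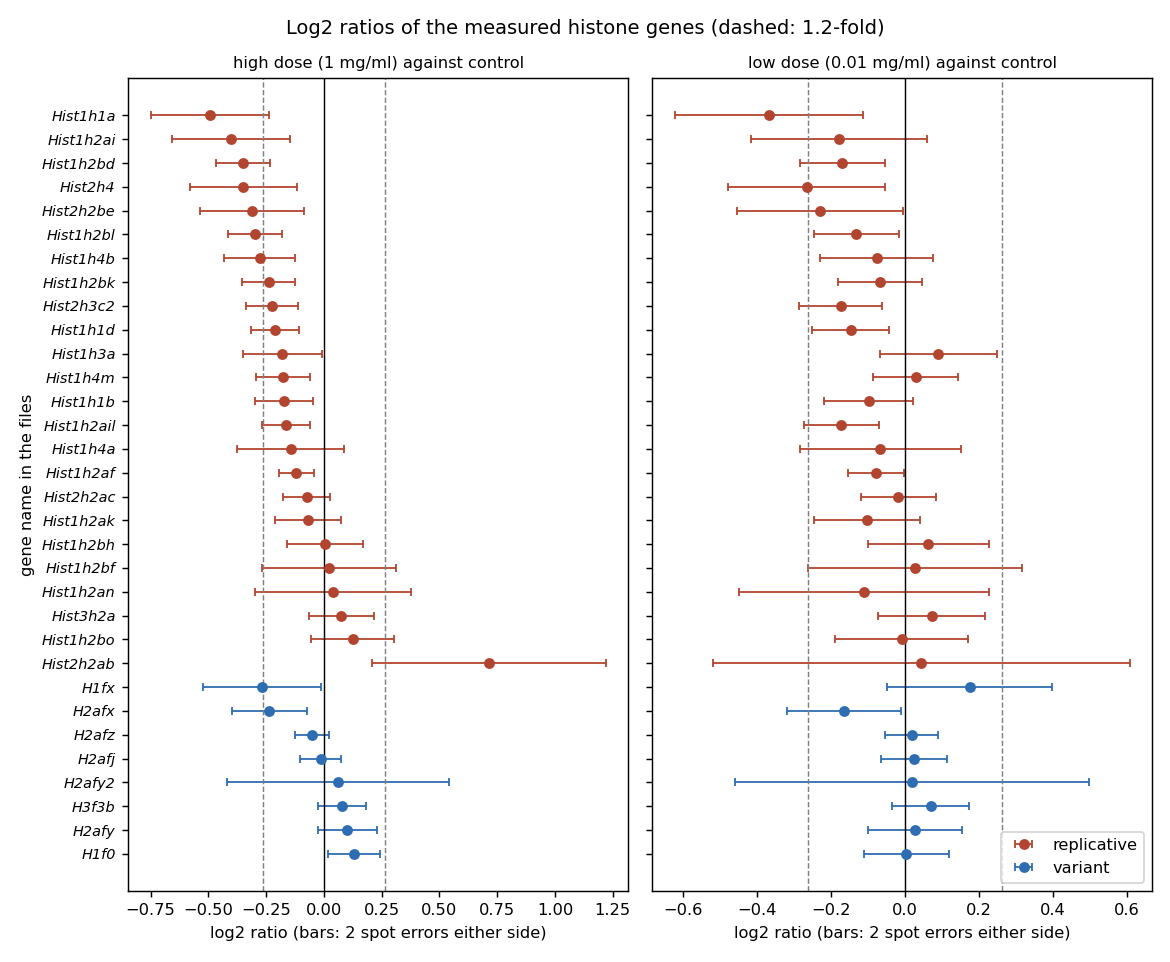
Log2 ratio to the control array of each measured histone gene at the high and the low dose, with bars of 2 spot errors either side and dashed lines at 1.2-fold; groups are 1 array each. At the high dose 18 of 24 replicative genes lie left of 0, with Hist1h1a lowest at -0.49 and Hist2h2ab highest at 0.71, while 4 of 8 variants lie on each side.

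The variants were closer to 0 than the replicative genes, with exceptions in H1fx and H2afx. H1fx, a linker histone gene outside the clusters, read 167 on the control, 196 with the low dose and 140 with the high dose. It was thus highest at the low dose and lowest at the high dose, with log2 ratios to control of 0.17 ± 0.11 and -0.27 ± 0.13. Its high against low ratio of -0.44 ± 0.12 was the lowest of the 32 histone genes. H2afx encodes H2A.X, the variant that is phosphorylated around DNA breaks. It read 471, 437 and 404, a stepwise order, with log2 ratios of -0.16 ± 0.08 and -0.24 ± 0.08.

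H2afz encodes H2A.Z, a variant found at promoters. Its probes read 63939 and 22395 on the control, 69093 and 23033 at the low dose, and 63857 and 21333 at the high dose, a log2 ratio of -0.05 ± 0.04 at the high dose. H2afj, for H2A.J, had probes reading 26342 and 15542 on the control, 26602 and 17234 at the low dose, and 25532 and 16099 at the high dose. Its log2 ratio at the high dose was -0.01 ± 0.04. H3f3b, one of the genes for H3.3, which is deposited outside replication, read 11055, 12072 and 11816. It lay slightly above control at both doses, with log2 ratios of 0.07 ± 0.05 and 0.08 ± 0.05, both within 2 spot errors of 0.

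H2afy and H2afy2 encode the macroH2A proteins, which carry a large domain beside the histone fold. H2afy had probes reading 6323 and 417 on the control, 6509 and 455 at the low dose, and 6407 and 484 at the high dose. Its log2 ratio at the high dose was 0.10 ± 0.06, with 0.20 at the probe starting at transcript base 781 and 0.00 at the one starting at base 1442. H2afy2 read 42.4, 44.7 and 44.7, with a log2 ratio of 0.06 ± 0.24. H1f0 encodes H1.0, the linker histone linked to cells that have stopped dividing, and it was the only variant higher than control by more than 2 spot errors at the high dose. Its probes read 13605 and 633 on the control, 14340 and 654 at the low dose, and 14613 and 722 at the high dose, a log2 ratio of 0.13 ± 0.06.

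The sequences below show how far the variants stand from the replicative probes. None of the 15 variant probes shared a run of 20 or more bases with the probe of another histone gene, whereas 11 of the 42 replicative probes did. The H2afz probe lies at chr2:235354700-235354759 on the plus strand of rn4, and the H1fx probe at chr4:122180532-122180591 on the minus strand. The former ends with a stop codon.
H2afz probe: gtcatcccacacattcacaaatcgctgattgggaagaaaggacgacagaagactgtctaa
H1fx probe: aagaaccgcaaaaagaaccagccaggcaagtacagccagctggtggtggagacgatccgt

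Not measured were 9 of the 41 genes. Among the replicative names these were Hist1h1t, Hist1h2aa, Hist1h2ba, Hist1h2ac, Hist3h2ba and Hist3h2bb. The first 3 are testis-type genes that the naming rule places in the replicative class. Among the variants these were H1fnt and H1foo, linker histones of the male and female germ line, and H2afb3. Hist1h1t was well above background in part of its spots on the high dose array alone, reading 18.1, 16.9 and 25.4 on the control, low and high dose arrays. Its high dose spots read 25.2 and 25.7, and only the latter was called well above background. A control spot at 21.0 was not so called, though the faintest signal so called on that array was 19.8, so no fold bound is drawn. The log2 ratio at the high dose was 0.48 ± 0.25 to control, within 2 spot errors of 0, and 0.63 ± 0.25 to the low dose. A further probe of Hist2h2be was well above background only at the low dose, and gave no bound.

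Replicative core histone probes (H2A, H2B, H3 and H4) differed by where they start in their transcript, though not without exception. The cut at transcript base 450 was chosen after the values were seen, and the split has no test. Of the 20 probes that start before it, in 15 genes, 19 lay below 0 at the high dose, all but Hist2h2ab, with a median log2 ratio of -0.23. Of the 8 probes that start at or after it, in 6 genes, 3 lay below 0 and 5 above, with a median of 0.03. The 6 genes were Hist1h2an, Hist1h2bf, Hist1h2bh, Hist1h2bo, Hist1h3a and Hist3h2a. The Hist1h3a probes, at bases 1208 and 2485, lay at -0.15 and -0.21. The measured H1 probes, left out of this split, start at bases 564 to 629. All of them lay below 0 at the high dose, from -0.49 to -0.16. The Hist1h2an probe starts at base 508 and holds the terminal stem-loop, so a later start need not lie past the messenger RNA's end. At the low dose the medians were -0.09 and 0.03. On the control the later probes read from 97.0 to 856, and the earlier ones from 60.7 to 69666. The range of signal went with position, and the part of either in the ratio was not tested.

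**Figure D3:**
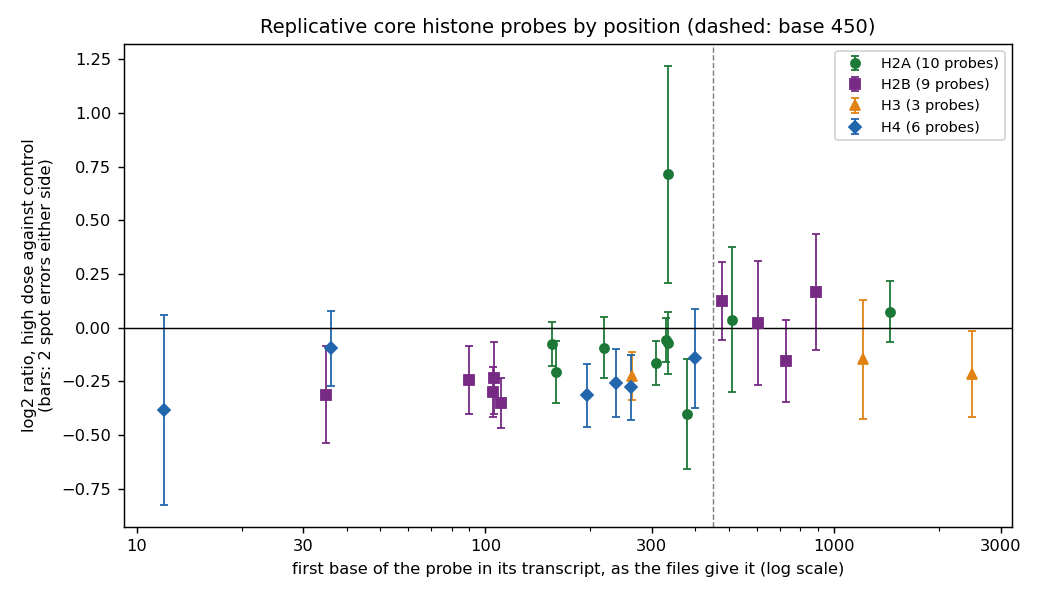
Log2 ratio at the high dose against control of the 28 measured replicative core histone probes (y axis, bars of 2 spot errors either side) by the first base of the probe in its transcript (x axis, log scale), with the cut at base 450 dashed. Left of the cut 19 of 20 probes lie below 0, and right of it 3 of 8 do.

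Sharing of sequence was described in the same way. The 10 measured replicative probes with a run of 20 or more bases in common with another histone gene's probe had a median log2 ratio of -0.22 at the high dose, 9 of them below 0. The 22 other measured replicative probes had a median of -0.16, with 17 below 0. No 2 of the 57 probes were identical. Even so, the array gives transcripts of near-identical genes no full separation, and a ratio named for 1 clustered gene may hold signal from others.

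The stem-loop that ends replicative histone messenger RNAs was read directly by few probes. It was searched as a 6-base arm beginning with GG, a loop of TTTC, and the complementary arm. It was found whole in 3 of the 57 histone probes, in Hist1h2ai and in both probes of Hist1h2an, and in 10 of all 30367 probes (0.0329%). A 30-base window around each is shown, with the hairpin in capitals. The Hist1h2ai probe lies at chr17:50387858-50387917 in rn4, and the files give no place for those of Hist1h2an.
Hist1h2ai: caccaaaGGCTCTTTTCAGAGCCacctata
Hist1h2an probe 1: aagaacaaaGGCTCTTTTCAGAGCCatcta
Hist1h2an probe 2: GGCTCTTTTCAGAGCCatctacttacttca
These hairpins are of one sequence, yet the log2 ratio at the high dose was -0.40 ± 0.13 for Hist1h2ai and 0.04 ± 0.17 for the first Hist1h2an probe. The second Hist1h2an probe was not well above background at the high dose.

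Promoters of the histone genes were searched for motifs known from replicative histone genes. RefSeq promoter sequence (GRCr8, 250 bases before to 50 after the start) was matched for 32 of the 41 genes. CCAAT, the box bound by NF-Y, searched on both strands, was present in 20 of 22 replicative promoters (90.9%), in 6 of 10 variant promoters and in 37.5% of all promoters. ATTTGCAT, the octamer bound by Oct-1, was present in 9 of the 22 replicative promoters (40.9%), 5 of them among 8 H2B and 4 among 7 H2A genes. It was present in 1 variant promoter, that of H3f3b, and in 1.78% of all promoters. TATAAA was present in 12 of the 22 (54.5%), in 3 of 10 variant promoters and in 14.2% of all promoters. Neither of the 2 matched H4 promoters held CCAAT, ATTTGCAT or TATAAA. The windows of Hist1h2aa and Hist1h2ba overlap, as do those of Hist3h2a and Hist3h2bb. Sites in the shared stretch, the octamer of each pair among them, are counted for both genes, so these promoters are not independent. A match describes letters in the window and is no evidence of binding in these cells.

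The 150 bases before the start are shown for a replicative H2B gene lower at the high dose, whose octamer follows CCAAT boxes, for a replicative H3 gene, and for the H2A.Z gene, which holds CCAAT boxes without an octamer. Capitals mark CCAAT or its reverse complement ATTGG, and the octamer ATTTGCAT. In GRCr8 these runs are chr17:47489009-47489158 (minus strand), chr2:186526012-186526161 (plus strand) and chr2:229028945-229029094 (plus strand).
Hist1h2bd promoter: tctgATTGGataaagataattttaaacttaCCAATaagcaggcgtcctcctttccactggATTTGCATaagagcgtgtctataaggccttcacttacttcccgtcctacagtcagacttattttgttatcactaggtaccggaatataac
Hist2h3c2 promoter: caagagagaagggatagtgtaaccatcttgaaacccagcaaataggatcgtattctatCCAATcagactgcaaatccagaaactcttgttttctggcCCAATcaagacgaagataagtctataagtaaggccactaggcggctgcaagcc
H2afz promoter: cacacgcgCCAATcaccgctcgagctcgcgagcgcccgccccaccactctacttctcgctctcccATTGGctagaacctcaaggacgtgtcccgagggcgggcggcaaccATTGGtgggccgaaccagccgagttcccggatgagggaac

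Genes that make, process and place histones were read from lists in the same way. The list for histone gene transcription and messenger RNA processing held 33 names, some of them older and newer names of the same gene. Of these names 28 were on the array and 26 were measured, with a median log2 ratio at the high dose of -0.05. Of the 26, 17 lay below 0 and 9 above (background 52.1% below). Lower by more than 2 spot errors were 5 (background 12.8%) and higher 2 (background 10.6%), and 1 was at least 1.2-fold lower (background 7.78%) and 1 higher (background 7.01%). Slbp, whose protein binds the stem-loop, read 475, 515 and 473 on the control, low and high dose arrays, a log2 ratio at the high dose of -0.02 ± 0.08. Npat, the coactivator of histone gene transcription at histone locus bodies, read 245, 228 and 260, with log2 ratios of -0.16 ± 0.07 with the low dose and 0.07 ± 0.07 with the high dose. Casp8ap2 (FLASH), which acts in histone pre-mRNA processing, lay at -0.00 ± 0.10. Ccne1, cyclin E1, whose kinase acts on NPAT, read 2799, 2667 and 2153, a ratio of -0.39 ± 0.06. Fip1l1, a polyadenylation factor subunit, was the one 1.2-fold higher, at 0.30 ± 0.06, and Wdr33 lay at -0.25 ± 0.34, within its spot error.

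Histone chaperones carry histones to DNA. All 32 listed genes were measured, with a median log2 ratio at the high dose of -0.08, 25 below 0 and 7 above (background 52.1% below). Lower by more than 2 spot errors were 10 (background 12.8%), higher by as much were 0 (background 10.6%), and 6 were at least 1.2-fold lower (background 7.78%). Chaf1a, the large subunit of the replication-coupled chaperone CAF-1, read 4838, 4766 and 4015, a log2 ratio of -0.28 ± 0.06, and Chaf1b read 6242, 6602 and 5385, a ratio of -0.23 ± 0.05. Asf1b, which hands H3 and H4 to CAF-1, lay at -0.30 ± 0.03. Rbbp4, Asf1a and Nasp of the same list lay at 0.03 ± 0.05, 0.08 ± 0.13 and -0.05 ± 0.09, each within 2 spot errors of 0. Furthest from 0 were Supt16h at -0.44 ± 0.25, Srcap at -0.39 ± 0.17 and Vps72 at -0.38 ± 0.13. The Supt16h value rests on 1 spot per array, at signals of 96.1, 81.7 and 71.9, and is within 2 spot errors of 0.

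S phase and DNA replication genes are given for context, and an earlier account of these data already showed such genes lower at the high dose. Their median over 28 genes was -0.20 at the high dose, with 26 below 0 (background 52.1%), 20 lower by more than 2 spot errors (background 12.8%) and 0 higher by as much (background 10.6%). Against the low dose array the median was -0.18 with 27 below 0 (background 53.1%), but at the low dose against control it was -0.02. Beside these values, the replicative histone medians to control were -0.17 at the high dose and, for the low dose, -0.09. Pcna, the replication clamp, lay at -0.14 ± 0.06 at the high dose, Cdt1, a licensing factor, at -0.54 ± 0.18, and Ung and Uhrf1 at -0.44 ± 0.10 and -0.44 ± 0.11. With spike-in centring the high dose medians read 0.10 for the processing list, 0.08 for the chaperones and -0.04 for the S phase list, so those of the first 2 lists turn positive. In RNA from a whole culture, fewer cells in S phase and less histone RNA per cell cannot be told apart.

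**Figure D4:**
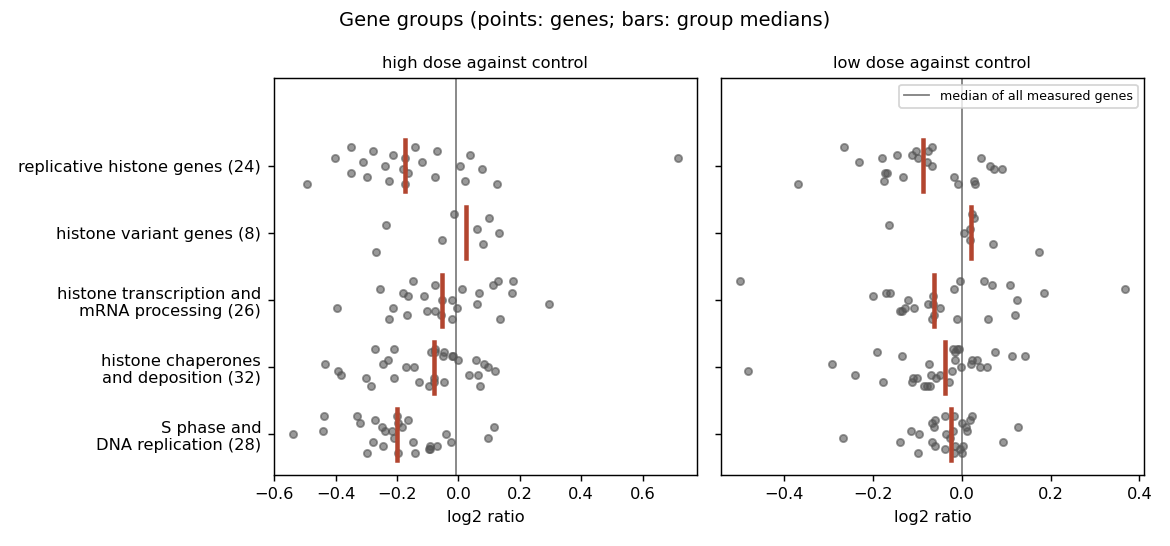
Log2 ratios to control of the replicative genes, the variants and 3 context lists at each dose; points are genes, red bars are group medians, and the grey line is the median of all measured genes. The replicative histone medians are -0.17 at the high dose and, for the low dose, -0.09, and those of the S phase list are -0.20 and -0.02.

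The arrays were alike in quality. From 55.9% to 57.2% of probes were well above background, no spot was saturated, and outlier flags fell on 352 to 426 of 58717 spots per array, at most 1 of them in the histone probes of any array. All 10 osteoblast markers were measured, with a summed signal of 123367 on the control, 130875 with the low dose and 119204 with the high dose. Markers of other cell types were measured in part. Their signals, summed over all listed markers whether measured or not, follow in the same order of arrays. For chondrocytes 2 of 6 were measured, without Acan, Col2a1, Col10a1 and Matn1, with sums of 273, 307 and 264. For adipocytes 2 of 5 were measured, Fabp4 and Cfd without Adipoq, Plin1 and Lep. The sum over all 5 was higher on both polyphosphate arrays, at 6370, 7017 and 7164. For macrophages or osteoclasts 4 of 6 were measured, without Ptprc and Ctsk, with sums of 234, 249 and 218. For endothelium 3 of 5 were measured, without Kdr and Tek, with sums of 335, 331 and 348. For muscle 4 of 5 were measured, without Myod1, with sums of 2077, 2065 and 1968. Their part in the histone ratios was not tested. All arrays lay on 1 slide, so position on the slide and group cannot be told apart. The number of arrays, 1 per group, limits the precision of every ratio given here.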

How the data were processed

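RNA of 3 cultures was read on 1 array each, grouped by the treatment labels. Per the file headers, spots were read by Agilent Feature Extraction, version 10.7.3.1 (protocol GE1_107_Sep09, design 028279, rn4 coordinates). The deposited processed signal is a linear intensity, background-subtracted and detrended within the array, not scaled between arrays. The flags that the authors deposited for each spot (well above background, outlier, saturated) have no other unit. The authors' value table holds a ratio: checked here, it is the processed signal over 1 constant per array (823 control, 849 low dose, 823 high dose, within 0.00012%). It is linear and not centred by gene, and its column medians were 0.0737, 0.0731 and 0.0734. How it was made is not stated in the sources used. The labelling kit was Low Input Quick Amp per the labels, and its primer is not stated there. How fully messenger RNAs without a poly(A) tail were labelled is therefore not known. The replicative signals, and their gap to the variants, may not stand for all histone messenger RNA.

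From these, log2 intensity minus the array's 75th percentile over non-control spots was computed. Outlier spots were dropped unless all of a probe's were, spots were averaged, and a gene was the mean over its measured probes. Signals printed are before scaling. The spot error came from repeat spots in 20 bins of level. Scripts were tested on simulated data (Python 3.11.15, pandas 2.3.3, numpy 2.4.6, limma 3.58.1 in R 4.3.3 for normexp). Named are all measured members, and from each list the 3 furthest from 0 at the high dose with fixed regulators. Further examples (Chaf1a, Chaf1b, Asf1b, Rbbp4, Asf1a and Nasp) were chosen after their values were seen. The members and lists were chosen with earlier results of these data known.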

Additional observations from a re-analysis of the deposited data

How the results depend on the processing

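Across 13 alternatives the replicative median at the high dose ranged from -0.18 to -0.02 and at the low dose from -0.09 to 0.07, and the variant medians from 0.01 to 0.18 at either dose. Spike-in centring gave -0.02 and 0.07 for the replicative and 0.18 and 0.18 for the variant genes, beside 0.15 and 0.16 for all measured genes. It left 1 lower and 3 higher histone genes (1.2-fold) at the high dose, and 0 lower and 1 higher at the low dose. The share of all measured genes past 1.2-fold was not counted at the alternative settings, so these and the following counts have no background beside them. The counts of genes 1.2-fold lower, 8 at the high dose, 2 at the low dose and 2 between doses, became 5, 1 and 1 with normexp background. The low dose count became 1 with quantile normalization and 1 with the authors' table, and the count between doses 1 with the percentile over detected probes. With dim probes kept, 4 were higher at the high dose, 5 lower and 1 higher at the low dose, and 3 higher between doses. Without probes sharing 20 bases, chosen after seeing the data, 5 of 25 genes were lower at the high dose. The causes were not tested. Requiring all spots above background, taking each probe on its own, leaving out identical probes (there were none), median centring, the median of spots and keeping outlier spots changed none of these medians' directions and no count by over 1.5 times. No paired analysis was possible because each group has 1 array. Signals near background, such as Hist2h2ab and H2afy2, limit what can be read for single genes.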

Other observations

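Histone transcripts outside the name rule gave further values. By their descriptions 35 other probes under 32 names read histone genes, and 30 were measured, with a median log2 ratio of -0.05 with the high dose and -0.01 with the low dose. The 3 described as H2B lay from -0.35 to -0.24 at the high dose, all below 0; one of them, an Ensembl H2B transcript, read 4672, 4383 and 3716 on the control, low and high dose arrays. Of the 6 described as H4, 4 lay below 0, with a median of -0.16 and a range from -0.41 to 0.16. A complete H4 gene among them read 3257, 3170 and 2636. The 7 described as H2A had a median of -0.06.

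The 4 described as H3.3 had a median of 0.14 at the high dose. One of them, RGD1564548, an H3.3-like gene, read 4729 on the control, 7008 with the low dose and 6239 with the high dose, with log2 ratios of 0.51 ± 0.06 and 0.38 ± 0.06. It was the highest of these 30 probes in both comparisons to control. Cenpa, the histone H3 variant of centromeres, read 228, 237 and 236, a log2 ratio of 0.03 ± 0.10 at the high dose.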
